A study of Mus musculus with 26 samples.

Results

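The comparison described here is a difference between differences. It asks which genes respond to loss of the atypical chemokine receptor ACKR2 in only one of 2 cell types, the bone marrow monocyte and the small peritoneal macrophage (SPM). The genotype effect in SPMs (ACKR2-/- minus WT) was set against the genotype effect in monocytes, on a log2 scale, so that a positive difference means that a gene was raised more, or lowered less, in SPMs. Of the 26 RNA sequencing samples of the series, the 16 from monocytes and SPMs entered the comparison, and 13914 of 53743 Ensembl genes counted in both tables passed the filter on low counts and were tested.

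There were 4 groups of 4 samples: WT monocytes, ACKR2-/- monocytes, WT SPMs and ACKR2-/- SPMs, all from naive female mice. Each sample held cells sorted from 5 pooled mice. According to the methods, WT mice were C57BL/6J bought from a supplier, while ACKR2-/- mice came from a homozygous colony bred separately. Genotype and colony therefore cannot be told apart in any value given below. By the markers given here, monocytes were sorted from marrow as CD45+, Ly6G-, SiglecF-, F4/80-, CD11b+ and Ly6C+ cells, and SPMs from peritoneal lavage as CD45+, CD11b+, F4/80 intermediate and MHCII+ cells. Neither sort used a T cell marker.

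ACKR2 is a scavenging receptor. Unlike conventional chemokine receptors it does not signal through G proteins, and its known role is to lower the amount of inflammatory CC chemokines around the cell. Monocytes leave the marrow with the help of CCR2 and, in the peritoneal cavity, give rise to SPMs, which carry MHC class II and are distinct from the F4/80 high large peritoneal macrophages.

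Ackr2 itself was near the limit of detection. WT SPMs had 5, 8, 7 and 9 reads of it in replicates 1 to 4, and ACKR2-/- SPMs had 0 in all 4 libraries. In monocytes, 1 WT library had 2 reads and the other 7 libraries had 0, so the labels could be checked against the targeted gene in SPMs and not in monocytes. Ackr2 did not pass the filter and has no test. The libraries held 12755868 to 35350726 reads on shared genes, and levels are given as CPM, the read count scaled to a common library size by the TMM method. A count of 0 in a library allows a level of up to 0.106 to 0.39 CPM, counting error only.

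Several libraries stood apart before any comparison was made. Classical monocytes are defined by Ly6C, and Ly6c2 was at 2170 to 4430 CPM in monocytes. WT SPMs had 24.5 to 83.2 CPM of Ly6c2, whereas ACKR2-/- SPM replicates 1 to 4 had 569, 48, 35.2 and 1050 CPM. The same 2 SPM libraries, replicates 1 and 4, had the highest summed interferon stimulated genes of all 16 libraries, at 2302 and 3089 CPM against 738.3 to 1376 CPM in the others. MHC class II transcripts marked SPMs in both genotypes, with H2-Ab1 at 36000 to 55900 CPM against 58.7 to 91.4 CPM in monocytes.

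Genes from marker lists of other cell types were present in both sorts, though not every list was high in both. The summed level of 20 T cell genes was 5.4 to 8.1 CPM in WT monocytes and 63 to 107.4 CPM in ACKR2-/- monocytes, and it was 432.7 to 806.8 CPM in WT SPMs and 392.8 to 667.9 CPM in ACKR2-/- SPMs. Cd2 alone was a large part of the SPM sums, at 258 to 508 CPM in WT and 169 to 442 CPM in ACKR2-/- libraries. In ACKR2-/- monocytes Cd2 was at 5.32 to 8.34 CPM. None of these 20 genes was at 0 in any of the 4 groups. Genes of the neutrophil and granule list such as Mpo and Elane were abundant in monocytes, at 2180 to 7280 and 3160 to 9920 CPM. In SPMs Mpo was at 0 to 1.3 CPM and Elane at 0.07 to 1.43 CPM. Whether these genes came from other cells in the monocyte sort was not tested. The summed level of the list was lower in ACKR2-/- monocyte replicates 3 and 4 (15520 and 20730 CPM) than in replicates 1 and 2 (52030 and 57190 CPM). Ly6g, the neutrophil antigen used in the sort, was at 1.82 to 12.5 CPM in monocytes. In bulk RNA, more cells of a type and more RNA per cell cannot be told apart.

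**Figure D1:**
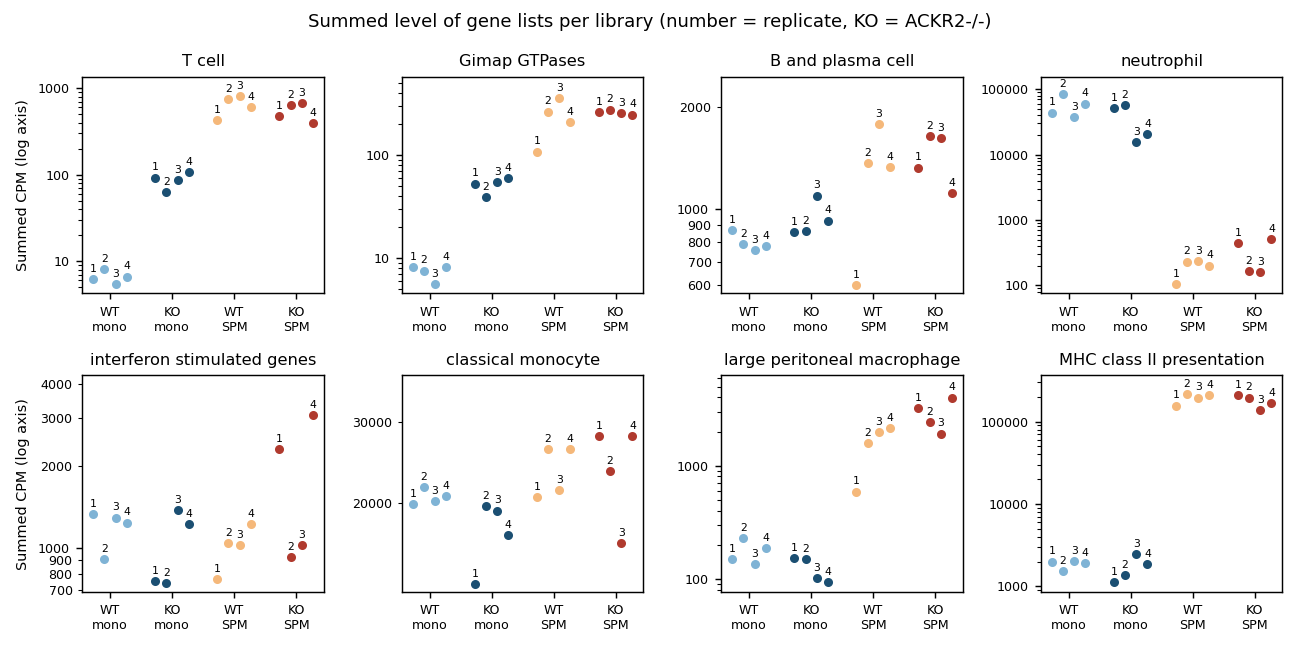
Summed CPM of 8 gene lists in each of the 16 libraries on a log axis, grouped by genotype and cell type, with the replicate number above each point and KO standing for ACKR2-/-. T cell and Gimap genes separated the monocyte genotypes without overlap and not the SPM genotypes, and SPM replicates 1 and 4 of the ACKR2-/- group lay above the rest for interferon stimulated genes (2302 and 3089 CPM).

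The genotype effect differed between the cell types for 82 genes, taking an edgeR quasi-likelihood adjusted p under 0.05 and a difference above 0.5 in absolute value. For 12 genes the effect was higher in SPMs (0.0862% of tested genes) and for 70 it was lower (0.503%). Within monocytes 130 genes were raised in ACKR2-/- samples (0.934%) and 9 were lowered (0.0647%). Within SPMs 7 were raised (0.0503%) and 3 were lowered (0.0216%). No gene was called in both cell types, and 118 genes had an unadjusted p under 0.05 in both, of which 42 moved the same way and 76 opposite ways.

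The 82 genes divided by the side on which the effect was seen. For 67, the monocyte effect was called and the SPM effect was not. For 8 the reverse held, and for 7 neither effect was called alone although the difference was. Of the 139 monocyte calls, 72 had no called difference from SPMs, so they cannot be assigned to monocytes alone. For 66 of these 72 the 95% interval of the difference excluded 0, and 54 of the 72 had the same sign in SPMs. Both counts are descriptions, since the 72 were picked by their monocyte effect. The 95% interval of the difference lay within 1 log2 unit of 0 for 4771 genes (34.3% of tested genes), and it was wider or shifted for the rest. Across the 10730 genes that reached 1 CPM in a group of each cell type, Pearson's r between the effects was -0.065, which is a description across genes and not a test.

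**Figure D2:**
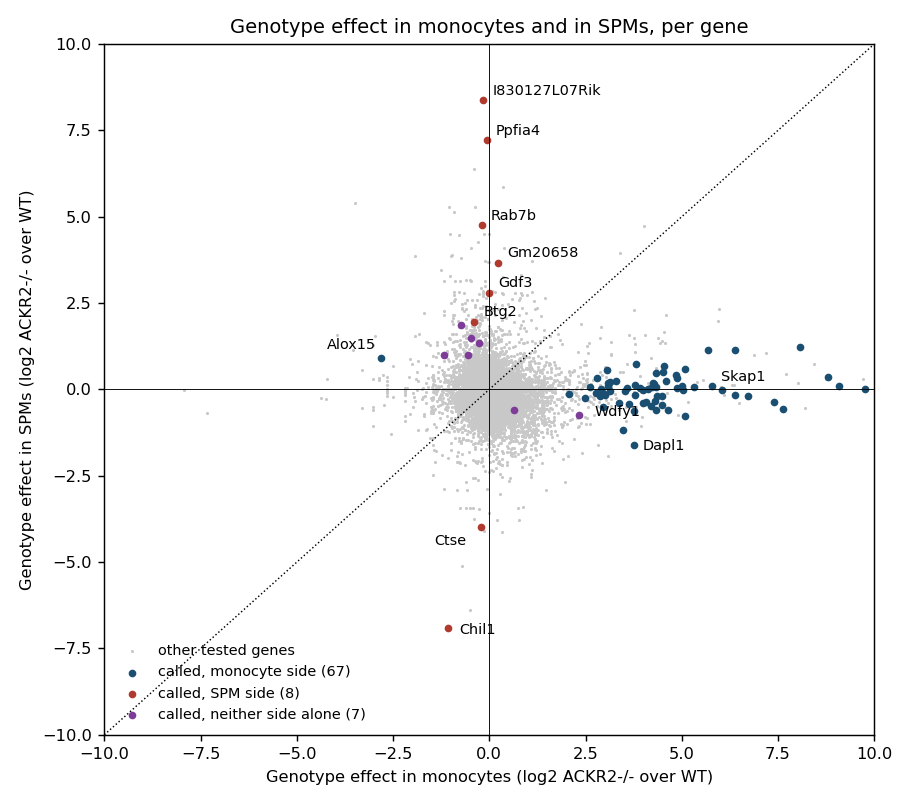
Each point is a tested gene, with its log2 ACKR2-/- over WT effect in monocytes on the x axis and in SPMs on the y axis, and the dotted line marks equal effects. The 67 genes called on the monocyte side lie along the x axis and the 8 called on the SPM side along the y axis.

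Of the 8 genes on the SPM side, 5 lie near each other on chromosome 1. Ppfia4, Rab7b, Btg2, Ctse and Chil1 all lie between positions 131638306 and 134332928 (mm10), a stretch with 29 tested genes. The ends of the stretch were set by these 5 genes themselves. That all 5 were called in SPMs and none in monocytes follows from the definition of the SPM side. Of the other genes of the stretch, 2 had an unadjusted p under 0.05 in SPMs, beside 1558 of all 13914 tested genes. The median absolute SPM effect of the other genes was 0.355 on the log2 scale.

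Ppfia4 (chr1:134296783-134332928) encodes liprin-alpha-4, a scaffold protein of the liprin family. WT SPMs had 0.07, 0.152, 0.26 and 0.379 CPM of it in replicates 1 to 4, and ACKR2-/- SPMs had 40.9, 30.6, 31.1 and 32.9 CPM. WT monocytes already had 73.8, 51.7, 75.7 and 56.4 CPM and ACKR2-/- monocytes 49.3, 50.3, 80.2 and 67 CPM. The SPM genotypes were thus far apart while the monocyte genotypes overlapped. On the log2 scale the effect was 7.22 ± 0.33 (SE, n = 4 per group) in SPMs and -0.06 ± 0.21 in monocytes, a difference of 7.28 ± 0.40 (edgeR adjusted p = 7.26e-09).

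Rab7b (chr1:131688695-131715439), a small GTPase of late endosomes, had the same shape. Its level was 5.67, 6.83, 4.68 and 6.17 CPM in WT SPMs and 137, 211, 190 and 95.1 CPM in ACKR2-/- SPMs. Monocytes had 28.7, 35.4, 33.4 and 32 CPM in WT and 20.9, 29.4, 33.9 and 28.5 CPM in ACKR2-/- libraries. ACKR2-/- SPMs therefore exceeded every monocyte library, and WT SPMs lay below them all. The difference of effects was 4.95 ± 0.33 (SE; edgeR adjusted p = 7.67e-08).

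Btg2 (chr1:134075170-134079120), an antiproliferative immediate early gene, rose from 69.5, 36.6, 31.3 and 35.5 CPM in WT SPMs to 168, 150, 168 and 186 CPM in ACKR2-/- SPMs. WT monocytes had 121, 75.6, 173 and 95.2 CPM and ACKR2-/- monocytes 106, 55.8, 106 and 88.3 CPM, with overlapping ranges. The effects were 1.96 ± 0.29 in SPMs and -0.39 ± 0.27 in monocytes, and they differed by 2.34 ± 0.39 (SE; edgeR adjusted p = 0.00442).

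Ctse and Chil1 moved the other way. Ctse (chr1:131638306-131675505) encodes cathepsin E, an aspartic protease of the endosomal compartment. It fell from 31.4, 46.8, 52.1 and 56.8 CPM in WT SPMs to 2.64, 3.49, 3.27 and 2.4 CPM in ACKR2-/- SPMs. Monocyte levels lay between these, at 11.6, 8.01, 8.97 and 9.22 CPM in WT and 10.7, 7.37, 8.06 and 6.58 CPM in ACKR2-/- libraries. The SPM effect was -3.99 ± 0.24 and the difference from monocytes -3.78 ± 0.31 (SE; edgeR adjusted p = 1.21e-06).

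Chil1 (chr1:134182176-134190181) encodes a chitinase-like protein that binds chitin without cleaving it. WT SPMs had 48, 165, 127 and 128 CPM and ACKR2-/- SPMs 0.516, 0.6, 0.152 and 2.48 CPM. In monocytes the levels were 54.6, 117, 42.5 and 69 CPM in WT and 54.9, 47.2, 12.4 and 20.8 CPM in ACKR2-/- samples, where the ranges overlapped. The monocyte estimate of -1.06 ± 0.53 did not pass the test (edgeR adjusted p = 0.594). The difference was -5.85 ± 0.85 (SE; edgeR adjusted p = 0.000944). With all 26 samples in the fit its adjusted p was 0.0604.

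**Figure D3:**
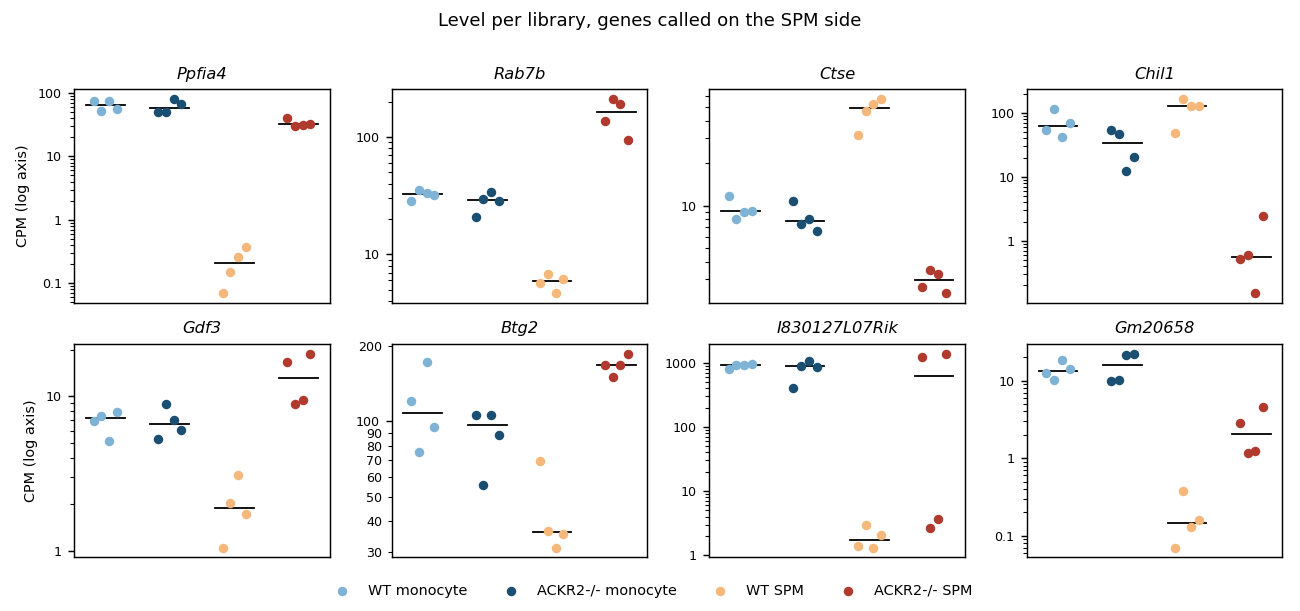
CPM on a log axis in the 16 libraries for the 8 genes called on the SPM side, with 1 point per library and a line at each group's median. Ppfia4, Rab7b, Ctse, Chil1, Btg2, Gdf3 and Gm20658 separate the SPM genotypes without overlap, whereas I830127L07Rik is high in only 2 of 4 ACKR2-/- SPM libraries (1220 and 1380 CPM).

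Upstream sequences are shown for 3 of these neighbours because they lie close together and moved in different directions. Each is the 250 bases before the RefSeq start (GRCm38.p6), 5′ to 3′ on the gene's strand. Capitals mark matches, on either strand, to short motifs. These were GAGGAA, the core that PU.1 and other ETS factors bind, the letters TGTGGT for RUNX factors, the letters AGATAA for factors of the GATA family, the letters TGANTCA for AP-1 and, for the TATA box, the letters TATAAA. None of these motifs contains another. RefSeq promoter entries for Ctse and Rab7b were not used here.
Ppfia4, chr1:134332929-134333178, minus strand: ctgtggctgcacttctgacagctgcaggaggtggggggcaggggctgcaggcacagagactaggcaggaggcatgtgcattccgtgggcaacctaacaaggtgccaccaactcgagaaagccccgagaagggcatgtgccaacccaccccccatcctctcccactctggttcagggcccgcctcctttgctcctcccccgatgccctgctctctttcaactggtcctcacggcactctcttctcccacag
Btg2, chr1:134079156-134079405, minus strand: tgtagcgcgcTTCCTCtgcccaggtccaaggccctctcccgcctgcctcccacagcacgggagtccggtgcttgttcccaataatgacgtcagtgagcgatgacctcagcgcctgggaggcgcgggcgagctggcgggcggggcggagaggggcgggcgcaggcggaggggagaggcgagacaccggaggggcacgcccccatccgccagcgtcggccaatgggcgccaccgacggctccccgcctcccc
Chil1, chr1:134181906-134182155, plus strand: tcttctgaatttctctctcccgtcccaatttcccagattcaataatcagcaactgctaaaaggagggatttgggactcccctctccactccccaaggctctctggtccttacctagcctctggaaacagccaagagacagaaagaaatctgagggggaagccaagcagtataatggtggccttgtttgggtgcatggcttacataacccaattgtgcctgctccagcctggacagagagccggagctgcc
Of the motifs searched, only Btg2 held a match, to GAGGAA, which 23.3% of all 32851 upstream sequences hold. The letters of the other motifs were not in these windows.

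Outside chromosome 1, Gdf3, Gm20658 and I830127L07Rik were also called on the SPM side. Gdf3, a ligand of the TGF-beta superfamily, was at 1.05, 2.05, 3.12 and 1.73 CPM in WT SPMs and 16.7, 8.95, 9.43 and 18.8 CPM in ACKR2-/- SPMs. All 8 monocyte libraries had 5.17 to 8.94 CPM. The difference of effects was 2.81 ± 0.44 (SE; edgeR adjusted p = 0.00195).

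Gm20658, a predicted gene, was at 0.07 to 0.379 CPM in WT SPMs and at 2.87, 1.15, 1.22 and 4.52 CPM in ACKR2-/- SPMs, with a difference of 3.45 ± 0.73 (SE; edgeR adjusted p = 0.0312). I830127L07Rik was at 1.3 to 2.96 CPM in WT SPMs and at 1220, 2.67, 3.65 and 1380 CPM in ACKR2-/- SPMs. Its monocyte level was 405 to 1050 CPM in both genotypes. Replicates 1 and 4 carried this difference, and they are the libraries with high Ly6c2 and high interferon stimulated genes. The I830127L07Rik difference was 8.52 with them and 0.88 without them (edgeR adjusted p = 0.692), and that of Gm20658 was 2.44 (edgeR adjusted p = 0.228). Ppfia4, Rab7b, Btg2, Ctse, Chil1 and Gdf3 remained called without these 2 libraries.

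The other 2 SPM calls had no called difference. Pimreg, a mitotic regulator, had an SPM effect of 1.16 ± 0.20 and a monocyte effect of -0.0046 ± 0.17, and the difference of 1.16 ± 0.26 (SE) had an edgeR adjusted p of 0.0528. Mucl1 had no reads in monocytes, so a genotype effect there could not be measured.

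On the monocyte side, 66 of 67 genes were raised in ACKR2-/- monocytes and Alox15 was lowered. T cell genes led. Of 20 T cell markers, all tested, 18 were raised in ACKR2-/- monocytes and 15 had a called lower difference, with none raised or lowered in SPMs. Of all tested genes, 0.934% were raised in monocytes and 0.503% had a called lower difference. The median effect of the list was 3.65 in monocytes and -0.097 in SPMs, beside -0.0087 and -0.036 for all tested genes. The list was named with earlier results of these data known, and its part as a marker of T cells in the sort was not tested.

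Cd3d, a chain of the CD3 complex, was at 0.355, 0.597, 0.646 and 0.423 CPM in WT monocytes and at 10.4, 9.57, 10.1 and 11.7 CPM in ACKR2-/- monocytes. SPMs had 27.3, 45.6, 56.7 and 35.4 CPM in WT and 38.8, 36, 33.6 and 35.9 CPM in ACKR2-/- libraries. The monocyte genotypes did not overlap, and the SPM level was above both and overlapped between genotypes. The effects were 4.35 ± 0.25 and -0.19 ± 0.20, a difference of -4.54 ± 0.32 (SE; edgeR adjusted p = 1.64e-07). Cd3g and Cd3e, the other CD3 chains named here, had differences of -4.69 ± 0.53 and -5.24.

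Lck, the kinase that starts signalling at the T cell receptor, was at 0.754, 0.384, 0.456 and 0.538 CPM in WT monocytes and at 11.7, 6.86, 9.67 and 13 CPM in ACKR2-/- monocytes. In SPMs it was at 13.7 to 22.7 CPM in WT and 18.2 to 21.5 CPM in ACKR2-/- libraries. Its level in ACKR2-/- monocytes thus came near the lower SPM libraries. The difference was -4.08 ± 0.36 (SE; edgeR adjusted p = 2.68e-06).

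Trbc2 and Trbc1 encode the constant regions of the T cell receptor beta chain, whose reads may be shared because the copies are near identical. Trbc2 was at 0.256 to 0.577 CPM in WT monocytes and at 11.5, 7.76, 12.8 and 15.5 CPM in ACKR2-/- monocytes, and in SPMs at 24.7 to 46.5 CPM and 35 to 37.7 CPM. The difference was -5.05 ± 0.37 for Trbc2 and -4.63 ± 0.41 for Trbc1 (SE; edgeR adjusted p = 2.68e-07 and 2.68e-06). Trac, the alpha chain constant region, differed by -4.12.

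CD8 and adhesion genes followed. Cd8b1, the CD8 beta chain, was at 0.266, 0.298, 0.38 and 0.461 CPM in WT monocytes and at 7.57, 5.24, 5.81 and 10.1 CPM in ACKR2-/- monocytes. WT SPMs had 4.27 to 14.3 CPM and ACKR2-/- SPMs 6.28 to 7.48 CPM, so that ACKR2-/- monocytes and SPMs overlapped in level. Cd2, an adhesion receptor of T and NK cells, was at 0.342 to 0.615 CPM and 5.32 to 8.34 CPM in WT and ACKR2-/- monocytes but at 169 to 508 CPM in SPMs. The differences were -4.92 ± 0.47 and -4.44 ± 0.46 (SE; edgeR adjusted p = 7.42e-06 and 1.77e-05). Skap1, an adaptor that links the T cell receptor to integrins, rose from 0.0887, 0.128, 0.152 and 0.0384 CPM to 6.68, 3.27, 6.81 and 6.69 CPM in monocytes and differed by -5.67 ± 0.60 (edgeR adjusted p = 2.38e-05).

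**Figure D4:**
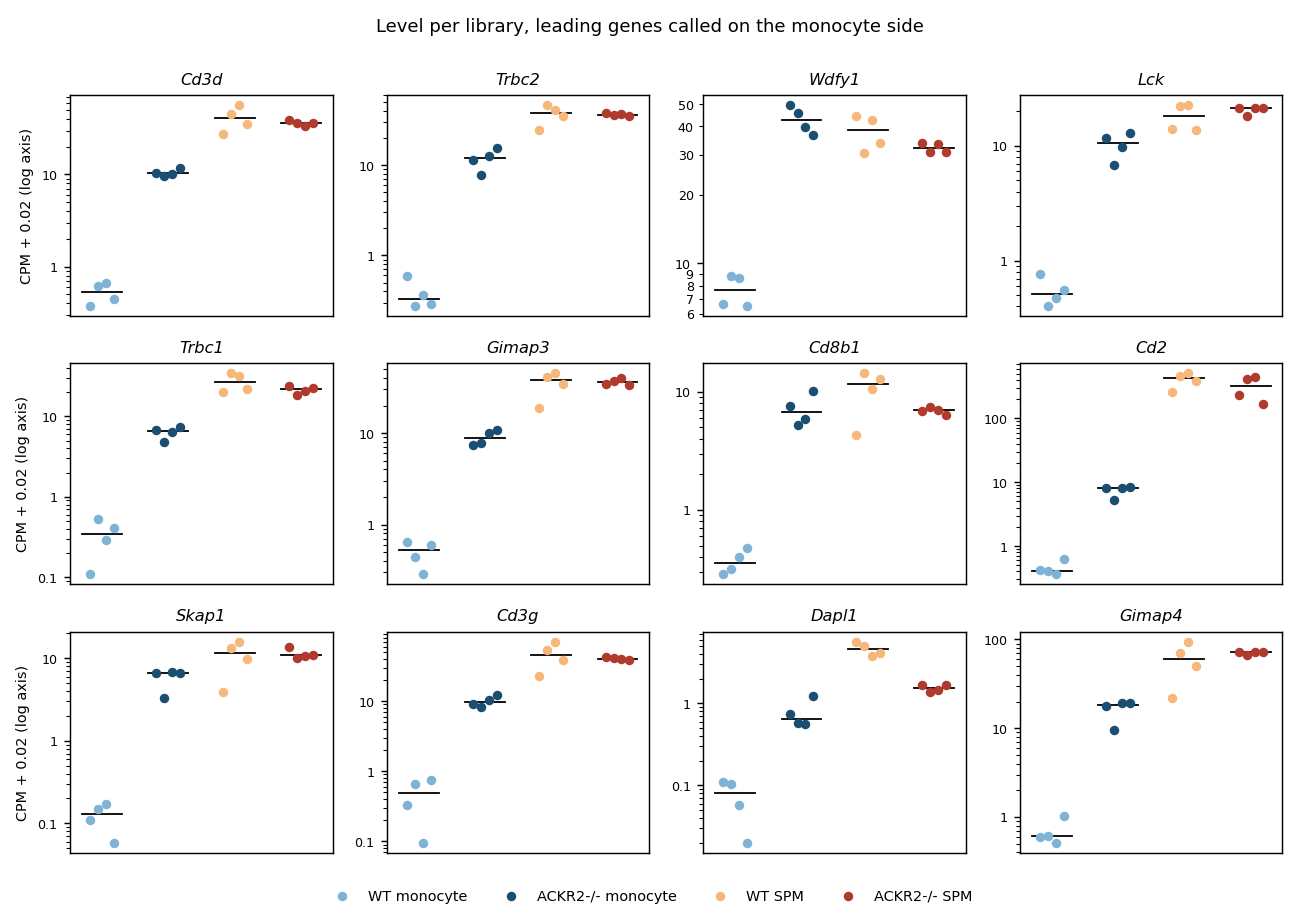
CPM plus 0.02 on a log axis in the 16 libraries for the 12 monocyte-side genes with the smallest p-values, with 1 point per library and a line at each group's median. In all 12 panels the ACKR2-/- monocyte libraries lie above the WT monocyte libraries, while the SPM genotypes overlap in every panel but Dapl1.

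Upstream sequences of Cd3d and Lck are shown, by the same rules as above, as examples of genes that moved together in monocytes and not in SPMs.
Cd3d, chr9:44981536-44981785, plus strand: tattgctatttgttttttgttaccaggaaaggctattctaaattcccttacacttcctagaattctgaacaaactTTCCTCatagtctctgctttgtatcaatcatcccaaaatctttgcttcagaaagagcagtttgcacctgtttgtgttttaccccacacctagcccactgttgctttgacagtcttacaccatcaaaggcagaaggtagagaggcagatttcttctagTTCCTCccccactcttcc
Lck, chr4:129573642-129573891, minus strand: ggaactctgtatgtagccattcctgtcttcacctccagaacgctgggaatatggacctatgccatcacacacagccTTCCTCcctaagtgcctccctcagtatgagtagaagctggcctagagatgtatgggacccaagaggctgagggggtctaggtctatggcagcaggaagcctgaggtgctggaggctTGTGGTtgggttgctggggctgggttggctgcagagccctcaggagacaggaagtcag
Cd3d held GAGGAA, on the reverse strand, at 2 places and Lck at 1, and Lck also held TGTGGT. Of the 34 monocyte-side genes with a RefSeq entry, 15 held GAGGAA and 9 held TGTGGT, motifs found in 23.1% and 11.4% of the upstream sequences of 9689 tested genes. The GATA, AP-1 and TATA motifs were held by 2, 1 and 3 of the 34, against 6.07%, 4.27% and 6.6% of tested genes.

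The Gimap genes, which encode GTPases of lymphocytes that act in their survival, showed a like pattern. Of 8 Gimap genes tested, 7 were raised in ACKR2-/- monocytes, beside 0.934% of all tested genes, and none changed in SPMs. A called lower difference was found for 7 of the 8, beside 0.503% of all tested genes. The median effect of the 8 genes was 4.07 in monocytes and 0.146 in SPMs. Gimap3 was at 0.621, 0.426, 0.266 and 0.576 CPM in WT and 7.39, 7.68, 9.88 and 10.7 CPM in ACKR2-/- monocytes, with 18.6 to 45 CPM in WT SPMs and 33.9 to 40.1 CPM in ACKR2-/- SPMs. The difference was -4.16 ± 0.38 (SE; edgeR adjusted p = 4.19e-06). Gimap8 had no reads in any WT monocyte library and 17, 5, 8 and 22 reads in ACKR2-/- monocytes, at least 15.3-fold higher than the level that 3 counts over the group allow.

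Of 15 NK and cytotoxic genes tested, 7 were raised in ACKR2-/- monocytes and 3 had a called lower difference (Il2rb, Klrd1 and Txk). The shares of all tested genes were 0.934% and 0.503%. All 15 had a positive SPM estimate, with a median of 1.23 against 3.76 in monocytes, and none passed the test in SPMs. Without ACKR2-/- SPM replicates 1 and 4 the SPM median was 0.269. The summed level of the list was 459.4, 249.8, 211 and 614.5 CPM in ACKR2-/- SPM replicates 1 to 4 and 118.4 to 387.8 CPM in WT SPMs. Il2rb, the beta chain of the IL-2 and IL-15 receptors, was at 0.115 to 0.469 CPM in WT monocytes, 3.7 to 7.78 CPM in ACKR2-/- monocytes, 3.01 to 6.52 CPM in WT SPMs and 5.79 to 9.43 CPM in ACKR2-/- SPMs. Ncr1, the receptor that defines NK cells, had 0 reads in all 8 monocyte libraries, and Gzmb had 0 in WT monocytes. Ccl5, a chemokine bound by ACKR2 that T and NK cells make, rose in monocytes from 1.91, 1.24, 0.646 and 1.08 CPM to 6.32, 6.46, 10.9 and 11.9 CPM, and was at 42.4 to 154 CPM in WT and 45.2 to 265 CPM in ACKR2-/- SPMs. Its difference of -2.38 ± 0.69 (SE) did not pass the test (edgeR adjusted p = 0.165), but without ACKR2-/- SPM replicates 1 and 4 it was -3.56 and did (edgeR adjusted p = 0.0192).

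B cell and plasma cell genes were less uniform. Of 15 tested, 2 were raised in ACKR2-/- monocytes, Jchain and Mzb1, beside 0.934% of all tested genes, and no member had a called difference. Jchain, which joins the subunits of polymeric IgA and IgM, rose in monocytes from 17.5, 9.38, 8.36 and 12.9 CPM to 62.5, 69.7, 47.1 and 80.3 CPM and was at 0.14 to 2.5 CPM in SPMs. Among the 67 monocyte-side genes, 16 encode segments of antigen receptors (immunoglobulins and T cell receptors), and 38 of 67 either do so or belong to the T, NK, B and Gimap lists. The lists are short, and the remaining 29 include other lymphocyte genes such as Cd8b1 and Skap1. The count of 38 is therefore not a count of all lymphocyte genes. Igha, the IgA constant region, was at 8.56 to 15.9 CPM in WT and at 98.1, 34.9, 96.5 and 140 CPM in ACKR2-/- monocytes.

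For most monocyte-side genes the SPM was the cell with the higher level, so the absence of a call there was not an absence of reads. WT SPMs had a higher mean than WT monocytes for 66 of the 67 genes and a higher mean than ACKR2-/- monocytes for 58. Over the 67 genes the median of mean levels was 0.138 CPM in WT monocytes, 2.05 CPM in ACKR2-/- monocytes, 5.19 CPM in WT SPMs and 5.55 CPM in ACKR2-/- SPMs. The 95% interval of the SPM effect lay within 1 log2 unit of 0 for 32 of them, a description only, since genes called in SPMs were left out of this set by its definition. WT monocytes were under 1 CPM for 63 of the 67.

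Some monocyte-side genes were in none of these lists. Wdfy1 (chr1:79702262-79776143) encodes an endosomal protein with a FYVE domain that binds phosphoinositides. It was at 6.61, 8.82, 8.59 and 6.49 CPM in WT monocytes and at 49.6, 45.8, 39.7 and 36.7 CPM in ACKR2-/- monocytes. SPMs had 44.6, 30.6, 42.8 and 33.9 CPM in WT and 33.9, 30.8, 33.3 and 30.8 CPM in ACKR2-/- libraries, so that WT monocytes alone were low. The effect was 2.49 ± 0.18 in monocytes and -0.24 ± 0.17 in SPMs, a difference of -2.73 ± 0.24 (SE; edgeR adjusted p = 2.68e-06). Wdfy1 overlaps Mrpl44 on the opposite strand, and no source used here states whether reads were counted by strand.

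Dapl1, which encodes a small protein related to death-associated protein, was the only one of the 12 leading genes with SPM groups that did not overlap. It was at 0 to 0.0887 CPM in WT and 0.535 to 1.23 CPM in ACKR2-/- monocytes, and at 5.67, 5.01, 3.77 and 4.17 CPM in WT and 1.66, 1.36, 1.44 and 1.64 CPM in ACKR2-/- SPMs. The monocyte effect was 3.75 ± 0.51 and the SPM estimate, -1.61 ± 0.35, did not pass the test within SPMs (edgeR adjusted p = 0.12). The difference was -5.36 ± 0.62 (SE; edgeR adjusted p = 7.26e-05).

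Alox15, the lipoxygenase of eosinophils and large peritoneal macrophages, was the one gene called as lower in ACKR2-/- monocytes with a called difference. WT monocytes had 2.31, 1.32, 1.67 and 2.27 CPM and ACKR2-/- monocytes 0.179, 0.0788, 0.143 and 0.634 CPM. SPMs had 77.6, 415, 509 and 709 CPM in WT and 856, 913, 598 and 833 CPM in ACKR2-/- libraries, with overlapping ranges. The effects were -2.82 ± 0.63 and 0.90 ± 0.44, and they differed by 3.73 ± 0.77 (SE; edgeR adjusted p = 0.0277). Of 30 alternative fits, 17 kept this call, and the adjusted p ranged from 1.81e-05 to 0.634. Other eosinophil genes did not pass the test in any contrast, and Siglecf, the eosinophil antigen used in the monocyte sort, was at 3.96 to 15.5 CPM in monocytes and 0.52 to 1.52 CPM in SPMs.

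Of the 7 genes called for the difference alone, 5 were higher in SPMs. Depdc1b, Kif2c and Nek2 act in cell division, Gsr encodes glutathione reductase, and Oscp1 is a protein linked to transport of organic solutes. Depdc1b was at 40.6, 48.9, 37.1 and 43.9 CPM in WT and 30.1, 36.4, 27 and 29.3 CPM in ACKR2-/- monocytes, and at 0.14 to 0.433 CPM in WT SPMs and at 0.836 CPM or more in ACKR2-/- SPMs. Its genotypes did not overlap in either cell type, the estimates had opposite signs, and the difference was 1.97 ± 0.33 (SE; edgeR adjusted p = 0.00444). In SPMs Depdc1b had 17 reads over all WT libraries and 78 over all ACKR2-/- libraries, so few reads set the SPM estimate. Gsr was at 559 to 677 CPM in WT and 371 to 514 CPM in ACKR2-/- monocytes, and at 17.3 to 23.4 CPM in WT SPMs and 52.2, 27.1, 26.9 and 58.1 CPM in ACKR2-/- SPMs. Its difference was 1.54 ± 0.33, and 0.97 without ACKR2-/- SPM replicates 1 and 4 (edgeR adjusted p = 0.0312 and 0.381). Kif2c, Nek2 and Oscp1 differed by 1.62 ± 0.33, 2.18 ± 0.49 and 2.60 ± 0.51.

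The 2 genes lower in SPMs were Rcn3, a calcium-binding protein of the endoplasmic reticulum, and Clec2g, a C-type lectin. Rcn3 was at 2.31 to 3.03 CPM in WT and 3.7 to 5.04 CPM in ACKR2-/- monocytes, and at 13 to 17.7 CPM in WT and 8.93 to 10.3 CPM in ACKR2-/- SPMs. Its genotypes did not overlap in either cell type, and the difference was -1.25 ± 0.25 (SE; edgeR adjusted p = 0.0226). Clec2g differed by -3.07 ± 0.68 (edgeR adjusted p = 0.0478) and was at 0 to 0.076 CPM in WT monocytes, where a few reads set the estimate. Without ACKR2-/- SPM replicates 1 and 4, the differences of Rcn3, Clec2g, Kif2c and Oscp1 did not pass the test (edgeR adjusted p = 0.173, 0.174, 0.166 and 0.145), nor did that of Nek2. In that fit the differences were -1.21 for Rcn3, -2.85 for Clec2g, 1.53 for Kif2c and 2.21 for Oscp1, near those with all libraries. A fit with fewer libraries also has less power to call a difference.

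Among chemokine receptors, several of which mark lymphocytes, the calls were in monocytes. Of 16 tested, 3 were raised in ACKR2-/- monocytes, beside 0.934% of all tested genes. Of these 3, Ccr7 and Cxcr6 had a called difference of -3.18 ± 0.57 and -3.06 ± 0.60, beside 0.503% of all tested genes with a called lower difference. Without ACKR2-/- SPM replicates 1 and 4 neither difference passed the test (edgeR adjusted p = 0.0803 for Ccr7 and 0.0694 for Cxcr6). The differences were then -2.92 for Ccr7 and -3.25 for Cxcr6, in a fit with fewer libraries and so less power. Cxcr6 overlaps Fyco1 on the opposite strand. Ccr1, the third, was raised from 57.3, 48.6, 60 and 48 CPM to 150, 108, 109 and 120 CPM in monocytes and was at 109 to 263 CPM in WT and 181 to 266 CPM in ACKR2-/- SPMs. Its difference of -1.17 ± 0.32 (SE) did not pass the test (edgeR adjusted p = 0.14).

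Ccr2, the receptor by which monocytes leave the marrow, had no called effect in either cell type. It was at 571, 345, 552 and 465 CPM in WT and 275, 312, 622 and 510 CPM in ACKR2-/- monocytes, and at 2650, 1070, 841 and 1070 CPM in WT and 549, 659, 789 and 507 CPM in ACKR2-/- SPMs. The SPM genotypes did not overlap, and WT SPM replicate 1 was far above the rest. The 95% interval of the difference was -1.99 to -0.01 (edgeR adjusted p = 0.387). Cxcr4, which holds cells in the marrow, differed by -1.03 (95% interval -2.09 to 0.040, edgeR adjusted p = 0.405). Neither result shows that the cell types respond alike.

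Ligands of ACKR2 were followed as a list of 11 inflammatory CC chemokines, of which 8 were tested. The median effect was -0.137 in monocytes and 0.613 in SPMs, the median difference was 1.24, and no member had a called difference. Without ACKR2-/- SPM replicates 1 and 4, which left 9 members tested, the SPM median was 0.0433 and the median difference 0.616. Ccl3 and Ccl4 were at 2.52, 4.78, 3.38 and 2.16 CPM and at 2.24, 7.89, 3.9 and 6 CPM in WT SPMs, and in ACKR2-/- SPMs they were at 10.1, 4.2, 4.37 and 14.2 CPM and at 33, 6.66, 8.1 and 54.6 CPM. Replicates 1 and 4 were again the high ones, and the differences were 1.99 ± 0.66 and 2.52 ± 0.83 (SE; edgeR adjusted p = 0.227 and 0.227).

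The signalling genes that the study named had no called difference. Tgfb1 differed by 0.56 (95% interval -0.32 to 1.45), Stat6 by 0.24 (-0.52 to 1.00) and Nfkb1 by -0.21 (-0.95 to 0.53), with edgeR adjusted p of 0.569, 0.802 and 0.832. Tgfb1 was at 27.5 to 35 CPM in WT and 12.7 to 23.9 CPM in ACKR2-/- monocytes, which did not overlap, and its monocyte effect of -0.83 ± 0.29 did not pass the test (edgeR adjusted p = 0.322). Of 24 tested genes of the NF-kB list, 1 was raised in monocytes (Traf1), none changed in SPMs and none had a called difference, with medians of -0.161 in monocytes and 0.281 in SPMs. Without ACKR2-/- SPM replicates 1 and 4 the SPM median was -0.00925. Of 19 genes of the STAT6 list, the only call was Alox15, and of 19 TGF-beta pathway genes there was no call in any contrast.

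Interferon stimulated genes had medians of opposite sign in the cell types. The median effect of 30 genes was -0.326 in monocytes and 0.908 in SPMs, a median difference of 1.23 beside -0.0435 for all tested genes. No member was called. At an unadjusted p under 0.05, 17 of 30 were higher in SPMs and 0 lower, against 5.94% and 6.8% of all tested genes. Cxcl9, a chemokine induced by interferon gamma, was at 1.82, 5.92, 1.56 and 2.81 CPM in WT SPMs and at 84.6, 1.69, 3.35 and 90.8 CPM in ACKR2-/- SPMs. Without replicates 1 and 4, 0 of 30 members had an unadjusted p under 0.05 in either direction and the median difference was 0.244. These 2 libraries had been set apart partly by their high level of this same list. A smaller difference without them follows in part from that choice, and the fit with fewer libraries has less power.

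Antibacterial and complement genes also depended on these libraries. Of 26 tested, 13 had a higher effect in SPMs at an unadjusted p under 0.05 and 2 a lower one, against 5.94% and 6.8% of all tested genes. Without ACKR2-/- SPM replicates 1 and 4, 1 was higher and 2 were lower. The median difference was 0.978 with these libraries and 0.43 without them. A fit with fewer libraries also has less power, which lowers such counts. The members with a called difference, Ctse and Chil1, are those of chromosome 1. Acod1, which makes itaconate, was at 0.98, 0.91, 0.78 and 1.46 CPM in WT SPMs and at 68.1, 0.873, 1.22 and 111 CPM in ACKR2-/- SPMs, while in monocytes it was at 3.19, 0.171, 0.266 and 0.346 CPM in WT and at 0, 0, 0.321 and 0 CPM in ACKR2-/- libraries. The difference of 8.89 ± 2.07 (SE) had an edgeR adjusted p of 0.0638.

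Cell cycle genes were abundant in monocytes, at 3860 to 5453 CPM summed over 30 genes, and lower in SPMs, at 267.3 to 656.2 CPM. The median effect was -0.208 in monocytes and 0.465 in SPMs. Of the 30 genes, 29 had a positive difference, against 6545 of all 13914 tested genes. None was called, and 11 of 30 had an unadjusted p under 0.05 with a higher SPM effect, against 5.94% of all tested genes. Without ACKR2-/- SPM replicates 1 and 4, a fit with less power, 5 did. The median difference was 0.583 with these libraries and 0.637 without them. Plk1, a mitotic kinase, was at 128 to 169 CPM in WT and 83.4 to 115 CPM in ACKR2-/- monocytes, and at 1.26 to 3.14 CPM in WT and 3.22 to 7.8 CPM in ACKR2-/- SPMs, with a difference of 1.61 ± 0.38 (SE; edgeR adjusted p = 0.0699).

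Markers of large peritoneal macrophages also split. Of 13 tested, 12 had a positive SPM estimate and 11 a negative monocyte estimate, with medians of 0.619 and -0.602, and the only call was Alox15. Of all 13914 tested genes, 6373 had a positive SPM estimate and 6701 a positive monocyte estimate. Many of these markers were under 1 CPM in every monocyte library, so few reads set their monocyte estimates. Gata6 had 1 read in WT and 0 in ACKR2-/- monocytes, and Serpinb2 had 25 and 3. The summed level of the markers was 588.1 to 2155 CPM in WT SPMs and 1913 to 3988 CPM in ACKR2-/- SPMs, against 92.4 to 229.6 CPM in monocytes. Cd9 and Icam2 made up most of the monocyte sum, at 82.5 to 171 and 42.8 to 54.6 CPM in WT monocytes. Gata6, the factor that defines large peritoneal macrophages, was at 1.37 to 3.64 CPM in WT and 2.51 to 5.52 CPM in ACKR2-/- SPMs. The part of these cells in the SPM values was not tested.

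Housekeeping lists had no called difference. Of 40 ribosomal protein genes, 33 had a 95% interval of the difference within 1 log2 unit of 0, and of 30 oxidative phosphorylation genes 23 did, with median differences of -0.233 and -0.084. The difference was negative for 39 of the 40 and for 18 of the 30, against 7369 of all 13914 tested genes. MHC class II and class I presentation genes had median differences of -0.141 and 0.464 and no call, and without ACKR2-/- SPM replicates 1 and 4 these were 0.0172 and 0.0867. Glycolysis, lipid handling and lysosome genes had median differences of 0.554, 0.433 and 0.339, and the only called differences among them were those of Rab7b and Ctse, both of the lysosome list. Pgd, of the glycolysis list, was lowered in ACKR2-/- monocytes without a called difference. Of 22 immediate early genes, Btg2 was the one call.

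**Figure D5:**
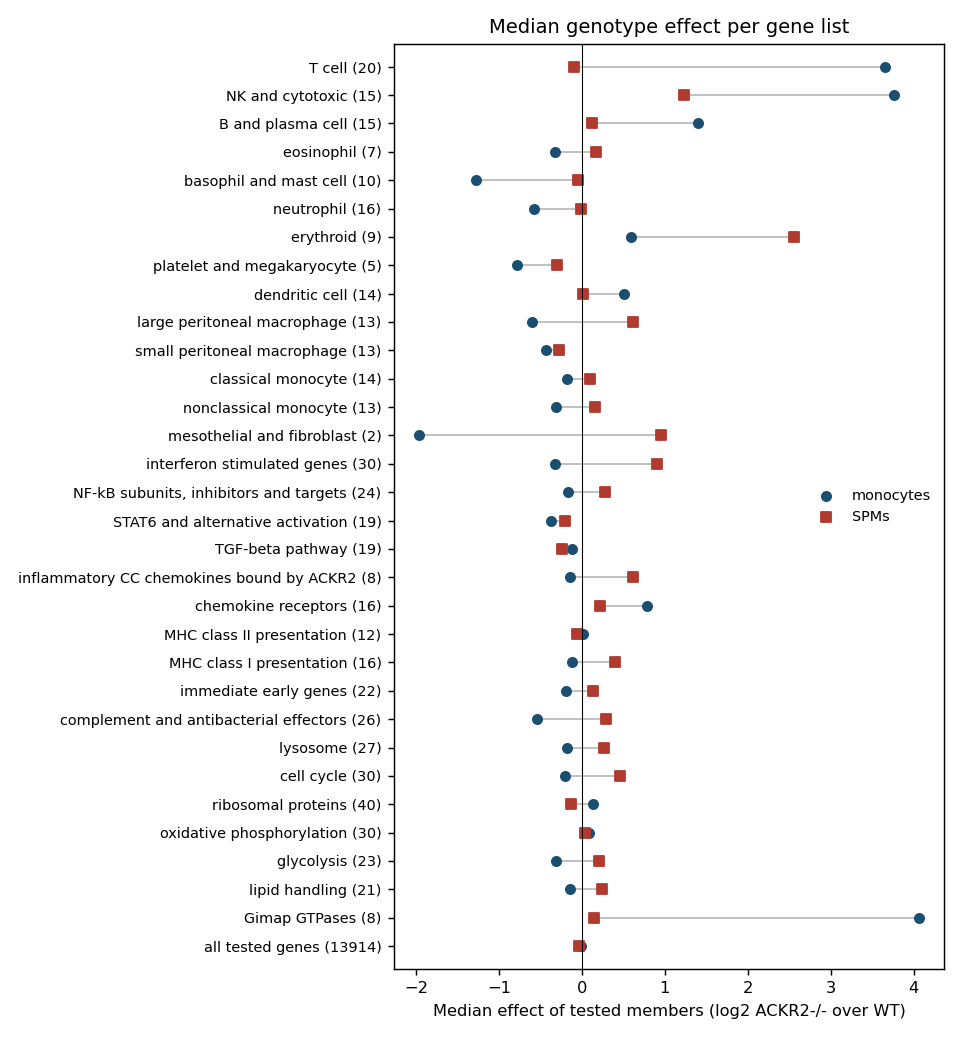
Median log2 effect of ACKR2-/- over WT in monocytes (circles) and in SPMs (squares) for each gene list, with the number of tested members in brackets and all tested genes in the last row. T cell (3.65 against -0.097), Gimap and NK lists have monocyte medians far above their SPM medians, and interferon stimulated genes (-0.326 against 0.908) have medians on either side of 0.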

How the data were processed

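RNA from sorted cells was amplified (SMARTer), poly-A selected and sequenced as paired reads. Per the labels and the submitters' processing notes, the authors aligned reads with HISAT2 2.0.5 to mm10 and counted them per gene with featureCounts 1.5.0-p3. The deposited values are raw whole-number counts, in 1 table for monocytes and 1 for SPMs, so cell type and any difference between the tables' processing cannot be told apart. The SMARTer amplification carries no molecular identifiers, so the levels that a count of 0 allows cover counting error only. The 95% intervals of effects come from the edgeR fit and include the spread between samples.

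The tables were joined on 53743 Ensembl genes, and 331 shared names of unannotated loci, which lay at different positions in the tables, were left out. Counts were filtered (edgeR filterByExpr, minimum count 10, minimum total 15), scaled by TMM and fitted with edgeR 4.0.16 (R 4.3.3) by the quasi-likelihood test, as a means model of the 4 groups. The difference of genotype effects, SPM minus monocyte, was a contrast of that fit. P-values were adjusted over all 13914 tested genes by Benjamini-Hochberg, and genes were called below an adjusted p of 0.05 where the log2 value also exceeded 0.5 in size. Depth per group was 15419693 to 19120557 reads in WT monocytes, 16138878 to 19182810 in ACKR2-/- monocytes, 12755868 to 29422667 in WT SPMs and 26985556 to 35350726 in ACKR2-/- SPMs. No replicate pair agreed within sampling noise. Each sample pooled 5 mice, and p-values measure the spread between these samples.

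Named genes were the 12 genes with the smallest p on each side, the 6 with the smallest p called for the difference alone, genes the study named, and for each list the 4 members with the smallest p and any member called. Igha, Pimreg, Mucl1 and Nek2, and the marker genes given for cell types, were chosen after their values were seen. The comparison and the gene lists were chosen with earlier results of these data known. The fit was tested on simulated data. Alternatives were DESeq2 1.42.0, limma 3.58.1 voom, other scalings and filters, all 26 samples, a replicate block and leaving out each library. Fits without ACKR2-/- SPM replicates 1 and 4, or without pairs of ACKR2-/- monocyte replicates, were added after seeing the data. Upstream sequences came from RefSeq (GRCm38.p6). One marker is not reported here.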

Additional observations from a re-analysis of the deposited data

Results flagged for a closer look

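The genotype effects in the cell types differed by a test of the difference itself (edgeR quasi-likelihood, the contrast of SPM minus monocyte effect) for the named genes that follow, with values as log2 differences. Positive differences were Ppfia4 7.28, Rab7b 4.95, I830127L07Rik 8.52, Alox15 3.73, Gm20658 3.45, Gdf3 2.81, Oscp1 2.60, Btg2 2.34, Depdc1b 1.97, Kif2c 1.62 and Gsr 1.54. Negative differences outside the lymphocyte lists were Ctse -3.78, Chil1 -5.85, Rcn3 -1.25 and Clec2g -3.07. Wdfy1 and Dapl1 differed by -2.73 and -5.36. Among T cell receptor and CD3 genes the differences were Cd3d -4.54, Cd3e -5.24, Cd3g -4.69, Cd247 -2.98, Trac -4.12, Trbc1 -4.63 and Trbc2 -5.05. Among T cell signalling and surface genes they were Lck -4.08, Lat -2.91, Zap70 -3.57, Skap1 -5.67, Tcf7 -2.22, Il7r -4.39, Cd2 -4.44, Cd8a -4.68 and Cd8b1 -4.92. Tcf7 stayed past the threshold in 12 of 30 alternatives and Zap70 in 15 of 29. The Gimap genes gave Gimap1 -2.89, Gimap3 -4.16, Gimap4 -4.35, Gimap5 -3.65, Gimap6 -3.86 and Gimap7 -4.13, the NK genes Il2rb -3.86, Klrd1 -2.88 and Txk -4.83, and the chemokine receptors Ccr7 -3.18 and Cxcr6 -3.06.

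In 14 of 260 groups of 4 libraries, 1 library lay far from the other 3. Chance alone gives about 1 in 20 such groups. Genes that stayed under 1 CPM in a group were counted among the 260 but could not be flagged, so the shares are not directly comparable. WT SPM replicate 1 was high for Btg2 (69.5 CPM), Ccr2 (2650 CPM) and Nfkb1 (67.6 CPM) and low for the summed lysosome genes (9871 CPM). ACKR2-/- monocyte replicate 2 was low for Cd2 (5.32 CPM), Gimap4 (9.46 CPM), Kif2c (39.2 CPM), Skap1 (3.27 CPM) and the summed inflammatory CC chemokines (27.62 CPM), and high for summed ribosomal protein genes (15550 CPM). ACKR2-/- monocyte replicate 3 was high for Nfkb1 (78.2 CPM), and ACKR2-/- SPM replicate 2 was low for Lck (18.2 CPM). ACKR2-/- SPM replicate 1 was low for the summed TGF-beta pathway genes (269.4 CPM) and high for the summed erythroid genes (1182 CPM).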

How the results depend on the processing

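All 82 genes with a called difference kept its sign in every alternative that tested them. The count of called differences was 226 with DESeq2, 269 with no filter on low counts, 45 with all 26 samples in the fit and 53 without ACKR2-/- SPM replicates 1 and 4, of which 50 were among the 82. Differences higher in SPMs, 12 in number, became 71, 123, 5 and 5 under these settings, 6 with voom and 24 without ACKR2-/- monocyte replicates 1 and 2, and the 70 lower ones became 155 with DESeq2, 146 with no filter and 40 with all 26 samples. Leaving out 1 library gave 69 to 126 differences, 6 to 53 higher and 61 to 90 lower, with 126 without ACKR2-/- SPM replicate 3 and 122 without replicate 2. Monocyte calls, 139, became 283 with DESeq2, 244 with no filter, 335 with voom and 92 among genes past the filter in each cell type, and 96 to 258 on leaving out 1 library (258 without WT SPM replicate 1). SPM calls, 10, became 102 with DESeq2, 199 with no filter and 6 from the 8 SPM samples alone, and 7 to 62 on leaving out 1 library (62 and 58 without ACKR2-/- SPM replicates 2 and 3, 16 without WT SPM replicate 4). The causes were not tested. Genes called in both cell types numbered 2 with DESeq2 and 4 with no filter.

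The sign turned for Chil3 (-0.228) and Ly6c2 (-0.309) without ACKR2-/- SPM replicates 1 and 4, and for Nfkb1 (0.264, and -0.287 to 0.264 over left-out libraries) without WT SPM replicate 1. Ly6c2 was among the values by which ACKR2-/- SPM replicates 1 and 4 had been set apart. Same-numbered libraries did not deviate together (correlations -0.0875 to 0.25 in monocytes and -0.101 to 0.0286 in SPMs), so the numbers were not taken to pair samples. With a replicate block there were 83 differences, 61 of them among the 82, 115 monocyte calls and 11 SPM calls. With 4 libraries a group, the median SE of a difference was 0.406, which limits what could be called.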

Other observations

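The lung samples of the series entered only the fit of all 26 samples, where 1 gene was called between the lung genotypes. It was Wdfy1, at 6.5 to 11.7 CPM in WT and 18.8 to 30.6 CPM in ACKR2-/- lung, a log2 effect of 1.34 (edgeR adjusted p = 0.00135). Of the genes on the SPM side, Rab7b had the lung estimate farthest from 0, -1.58, at 29.3 to 192 CPM in WT and 9.66 to 33.5 CPM in ACKR2-/- lung (edgeR unadjusted p = 0.000465, adjusted p = 0.177), opposite in sign to its SPM effect. The lung estimates were -0.24 for Ppfia4, 0.21 for Ctse, 0.19 for Chil1 and -0.28 for Btg2, and none of these 5 genes passed the test there. The 12 leading monocyte-side genes all had positive lung estimates, from 0.46 for Cd2 to 1.34 for Wdfy1. Lck had 1.18 (edgeR unadjusted p = 0.00215, adjusted p = 0.316), and of the 12 only Wdfy1 passed the test.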
